A study of Mus musculus with 18 samples.

Results

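The 10 genes described here, Bglap, Bglap2, Ibsp, Spp1, Alpl, Pth1r, Dmp1, Phex, Mepe and Sost, encode proteins that osteoblasts and osteocytes use to build and mineralize bone. They were taken by name from a list of bone matrix and mineralization genes, and all 10 were found among the 46983 genes of the count tables. RNA was measured by 3′ end sequencing, which counts 1 stretch near the end of each transcript, in male mice of the inbred strain C57BL/6J. The 4 groups were bone marrow of mice on HFD with glutamine (5 libraries), bone marrow of mice on HFD (4), adipose of mice on HFD with glutamine (5) and adipose of mice on HFD (4). HFD is part of every library name, so no group without it was set beside them. The genotype label reads Glutamine in the glutamine arm and Ctrl in the other, and no allele is named. The mice were obese according to the series title, which asks what glutamine does for skeletal strength. Titles read mBMSC for bone marrow and mAT-MSC VAT for adipose, while age, dose and cell isolation are not given here.

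Bone is made when osteoblasts secrete a collagen I matrix together with small acidic proteins, and mineral is then deposited in it. Osteocalcin, bone sialoprotein and osteopontin are such non-collagen proteins, and tissue-nonspecific alkaline phosphatase removes the inhibitor pyrophosphate so that crystals can grow. Osteoblasts buried in the matrix become osteocytes, which steer mineralization and phosphate handling through DMP1, PHEX and MEPE and restrain bone formation through sclerostin. The PTH receptor carries the signals of parathyroid hormone and PTHrP in the osteoblast lineage.

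Each library carries a pair of numbers in its title, written here as 4+6 and so on. The labels do not say what the pairs stand for, whether a pair is a pool of animals, or that libraries came from separate animals, so p-values measure only the spread between these samples. One bone marrow column with the glutamine prefix bears a pair found in no title and is called the unnumbered glutamine library. Bone marrow libraries held 13970788 to 37984603 counts and adipose libraries 35871168 to 59529238. A count of 100 was reached by 1755 to 7323 genes in each bone marrow library and by 11361 to 14469 genes in each adipose library. Bone marrow libraries thus held fewer detected genes and differed more among themselves, with the fewest in HFD library 23+28 and the unnumbered glutamine library. Levels are given as CPM, the count scaled to 1000000 counts per library.

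The labelled tissues were checked against marker genes. Summed over 10 marrow stroma genes, such as the chemokine gene Cxcl12 and the leptin receptor gene Lepr, the level was 2266 to 13990 CPM in bone marrow and 597 to 993 CPM in adipose. Granulocyte genes summed to 2968 to 55710 CPM in bone marrow and 56.8 to 299.6 CPM in adipose. Chondrocyte genes summed to 992 to 11870 CPM in bone marrow and 50.9 to 275 CPM in adipose. The bone marrow libraries therefore held RNA of blood-forming and cartilage genes beside that of bone, and the part of this in the results below was not tested. Endothelial genes, with 4.40 to 723 CPM in bone marrow and 756 to 2538 CPM in adipose, and mesothelial genes, with 1.35 to 3.65 CPM in bone marrow and 8.64 to 813 CPM in adipose, ran the other way. Fewer cells of a type and less RNA per cell cannot be told apart in such bulk samples.

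Of the 10 genes, 4 lie together on mouse chromosome 5. In GRCm38 coordinates, Dmp1 spans 104202613 to 104214102, Ibsp 104299171 to 104311469, Mepe 104325329 to 104338611 and Spp1 104435118 to 104441050, all on the plus strand within 238.4 kb. Bglap (chromosome 3, 88383501 to 88384464) and Bglap2 (88377736 to 88378699) are neighbours on the minus strand, 4801 bases apart. Alpl lies on chromosome 4 (137741733 to 137796384), Pth1r on chromosome 9 (110722085 to 110747145), Phex on the X chromosome (157162075 to 157415312) and Sost on chromosome 11 (101962458 to 101967015).

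Bglap and Bglap2 encode nearly the same osteocalcin, and their transcripts limit what a 3′ method can tell apart. The annotated transcripts are 440 and 471 bases long and 92.1% identical over 471 aligned columns. They differ at 1 position of the last 300 aligned bases, and their longest identical run is 241 bases. Counts of the pair are therefore uncertain as to which copy they came from, and sums of both are given beside the single values.

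The promoter windows of the 3 matrix genes with counts of at least 100 in every bone marrow library are shown because these genes were the most evenly detected. The 250 bases before the start of transcription come from RefSeq on GRCm38.p6, 5′ to 3′ on the gene's strand, and where a gene had 2 starts the one nearest to the annotated gene start was taken. They lie at chr3:88384467-88384716 (minus strand) for Bglap, chr5:104299037-104299286 (plus) for Ibsp and chr5:104434861-104435110 (plus) for Spp1. Capitals mark ACCACA, which is the RUNX core TGTGGT read on the other strand, and TATAAA or, read on the other strand, TTTATA. Runx2, a RUNX factor, is needed for osteoblasts to form.
Bglap: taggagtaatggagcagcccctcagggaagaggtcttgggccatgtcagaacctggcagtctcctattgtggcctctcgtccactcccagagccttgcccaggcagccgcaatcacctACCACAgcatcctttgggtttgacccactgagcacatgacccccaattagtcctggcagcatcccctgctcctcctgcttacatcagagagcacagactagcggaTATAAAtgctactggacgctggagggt
Ibsp: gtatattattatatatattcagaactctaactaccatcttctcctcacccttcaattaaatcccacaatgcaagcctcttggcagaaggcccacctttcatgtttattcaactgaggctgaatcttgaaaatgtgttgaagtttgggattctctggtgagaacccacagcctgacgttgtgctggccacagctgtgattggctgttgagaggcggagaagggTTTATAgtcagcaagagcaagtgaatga
Spp1: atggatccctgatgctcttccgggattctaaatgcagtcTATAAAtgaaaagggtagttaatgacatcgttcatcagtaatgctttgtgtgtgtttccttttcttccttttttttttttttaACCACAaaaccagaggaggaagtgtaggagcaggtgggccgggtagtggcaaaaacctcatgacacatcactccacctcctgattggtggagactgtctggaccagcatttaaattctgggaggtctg
The RUNX core was searched as TGTGGT and ACCACA, and 14% of 32851 windows of the same length held it. In Bglap it lay 132 to 127 bases before the start and in Spp1 128 to 123 bases before it. Dmp1 (164 to 159 bases before) and Mepe (118 to 113 and, as TGTGGT, 80 to 75) held it too, so that 4 of 9 members with a window did. TATAAA was searched with TTTATA, and 12.4% of windows held either, 3.03% within the last 40 bases. As TATAAA it lay 27 to 22 bases before the start of Bglap and 211 to 206 bases before that of Spp1. As TTTATA it lay 28 to 23 bases before the start of Ibsp and 173 to 168 bases before that of Mepe. The RUNX core was not in the Ibsp window. The homeodomain core TAATTA, held by 4.84% of windows, was found in Mepe alone. Bglap2 is not in the promoter table used.

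The first comparison asked how the bone genes differ between bone marrow and adipose. Of the 10 genes, 7 passed the filter on low counts and all 7 were higher in bone marrow. A filter that keeps a gene for counts in 1 group favours genes that differ, so this count is a description. Among all 15203 genes tested, 11.2% were called higher in bone marrow and 51.7% were called in either direction (edgeR quasi-likelihood test, Benjamini-Hochberg adjusted p under 0.05). That split, 1708 genes higher and 6150 lower, depended on the scaling factors. Relative log expression (RLE) factors gave 6524 higher (42.9%) and 2465 lower, upper-quartile factors 5144 higher (33.8%) and 3222 lower, and DESeq2 4160 higher (27.4%) and 2262 lower. The median gene lay at -1.43 on the log2 scale under TMM, at 1.94 under RLE and at 0.89 under upper-quartile scaling. Tissue differences of the bone genes are therefore given relative to the median gene, and the 7 genes were called higher under each scaling. The effects of tissue, of isolation and of the separate count tables cannot be told apart. All 18 libraries shared 1 estimate of dispersion, the spread beyond counting error, per gene in this fit. It was 0.720 for Ibsp and 1.16 for Bglap, where a fit of bone marrow alone gave 2.19 for both. Errors and p-values of the tissue differences below may therefore understate the spread of bone marrow.

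**Figure D1:**
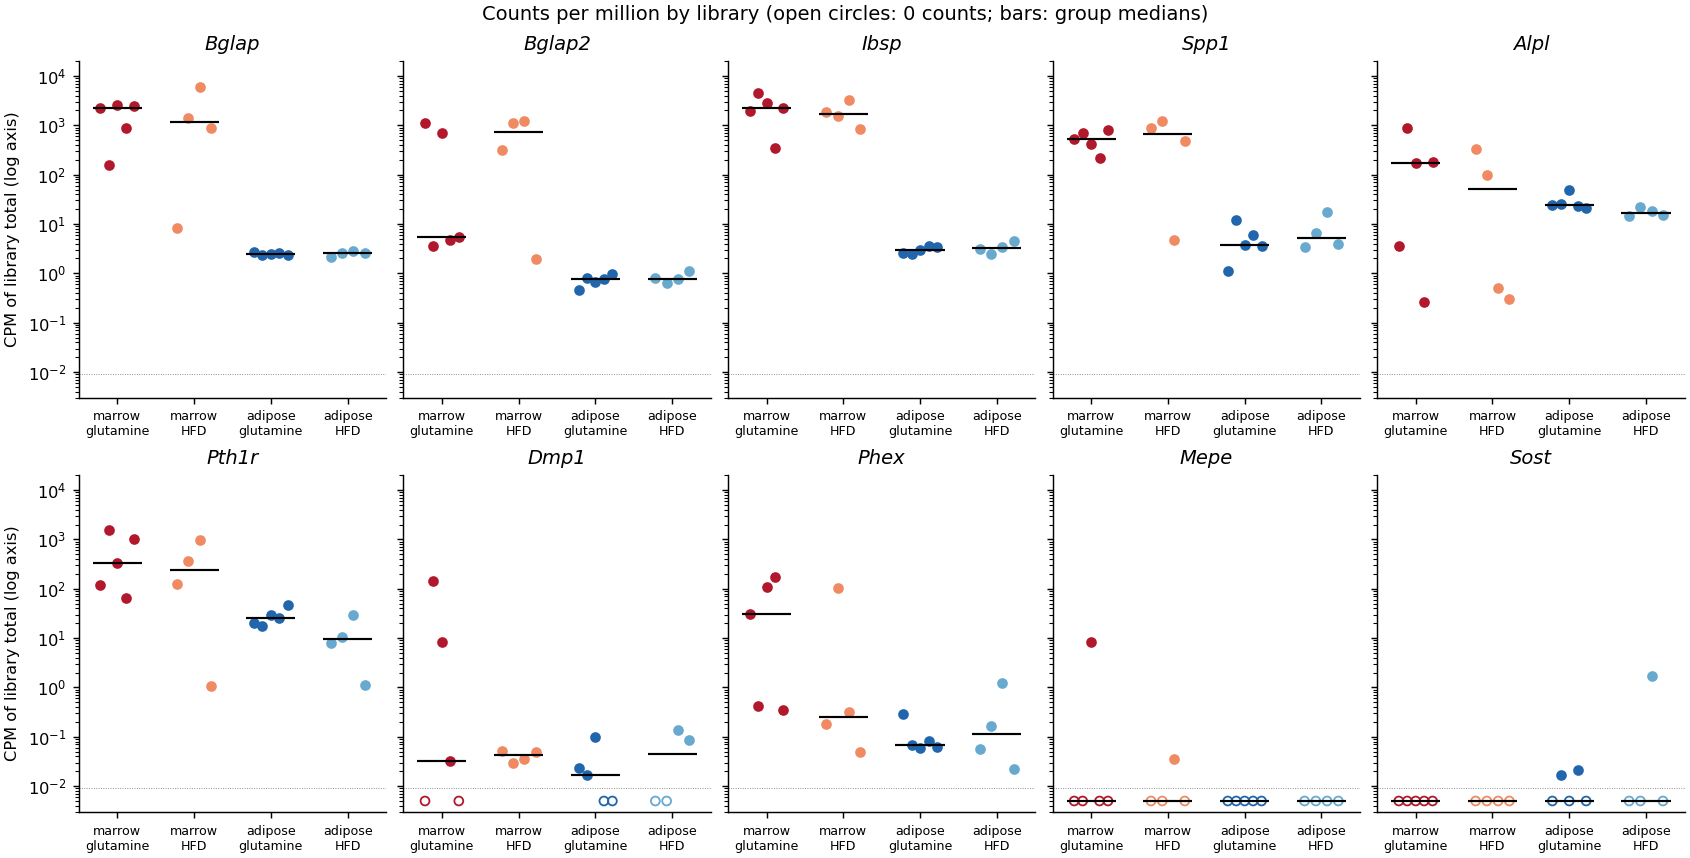
Level of each gene in every library, in CPM on a log axis, by group from left to right: bone marrow with glutamine, bone marrow with HFD, adipose with glutamine, adipose with HFD. Each filled circle is 1 library, open circles below the dotted line are libraries with 0 counts, and bars are medians. In Bglap, Bglap2 and Ibsp all bone marrow circles stand above all adipose circles.

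Osteocalcin, the most abundant non-collagen protein of bone and a marker of mature osteoblasts, was read from Bglap in all 18 libraries. In bone marrow with glutamine Bglap had 2279, 157, 2591, 871 and 2512 CPM in libraries 4+6, 10+12, 18+20, 25+27 and the unnumbered one, and in bone marrow with HFD 8.45, 1419, 5865 and 899 CPM in 1+3, 5+11, 14+17 and 23+28. Adipose levels were 2.74, 2.32, 2.42, 2.58 and 2.33 CPM with glutamine (4+6, 10+12, 13+15, 18+20 and 25+27) and 2.18, 2.62, 2.88 and 2.62 CPM with HFD. Every bone marrow library was above every adipose library, and HFD library 1+3 was the closest. Bglap was 12.93 higher on the log2 scale relative to the median gene and 11.51 ± 1.06 (SE, n = 9 per tissue) before that step (edgeR adjusted p = 3.73e-07). By size it was the second largest positive difference of 15203 genes.

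Bglap2, the neighbouring copy, had 1115, 3.58, 687, 4.75 and 5.45 CPM in bone marrow with glutamine and 316, 1120, 1230.5 and 1.94 CPM with HFD. Adipose held 0.453 to 0.974 CPM with glutamine and 0.641 to 1.10 CPM with HFD. Tissues did not overlap, but bone marrow fell into 5 libraries at 316 CPM or more and 4 at 5.45 CPM or less. Between tissues Bglap2 differed by 12.54 (log2) relative to the median gene (11.11 ± 1.51 before, adjusted p = 5.27e-06).

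The copy that was counted changed from library to library. Bglap2 made up 32.9%, 2.23%, 21.0%, 0.542% and 0.216% of the counts of the pair in bone marrow with glutamine, and 97.4%, 44.1%, 17.3% and 0.215% with HFD. HFD library 1+3, the lowest in Bglap with 321 counts, was the one in which Bglap2 dominated, with 12011 counts. With both copies added, the pair had 160 to 3394 CPM with glutamine and 325 to 7096 CPM with HFD in bone marrow. Its log2 difference from adipose was 12.86 relative to the median gene (edgeR adjusted p = 1.20e-08 before the median was taken off). Another copy, Bglap3, had 34 counts over all bone marrow libraries and 0 over adipose.

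Ibsp encodes bone sialoprotein, an acidic protein that starts mineral crystals. It had 1988, 4481, 2863, 346 and 2290 CPM in bone marrow with glutamine, and 1900, 1548, 3199 and 849.7 CPM with HFD. Adipose libraries held 2.62, 2.49, 2.98, 3.52 and 3.45 CPM with glutamine and 3.05, 2.48, 3.39 and 4.62 CPM with HFD. No library of bone marrow came near the adipose range, and by coefficient of variation Ibsp varied least of the 9 bone genes detected in bone marrow (57.7%), with 2163 ± 1248 CPM against 3.18 ± 0.675 CPM in adipose (SD, n = 9 each). Ibsp was 12.66 higher (log2) relative to the median gene (11.23 ± 0.627 before, adjusted p = 8.19e-11).

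Spp1 encodes osteopontin, which binds mineral and cells in bone and is also made by macrophages. In bone marrow it had 534, 710, 428, 218 and 813 CPM with glutamine and 871, 1211, 4.75 and 470 CPM with HFD. Its adipose levels were 1.12, 11.8, 3.74, 6.05 and 3.64 CPM with glutamine and 3.48, 6.63, 17.7 and 3.96 CPM with HFD. HFD bone marrow library 14+17, with the highest Bglap, had the lowest Spp1 and lay inside the adipose range, so the tissues overlapped by that library. The log2 difference was 9.89 relative to the median gene (8.47 ± 0.962 before, adjusted p = 3.89e-06). Over the 16 macrophage genes the summed level was 230 to 1721 CPM in bone marrow and 569 to 2192 CPM in adipose. Of these, 2 were called higher in bone marrow and 10 lower. Adgre1 and Trem2 did not exceed 0.143 CPM in any bone marrow library, whereas Csf1r reached 156 CPM, Cd68 130.5 CPM and Ptprc 267 CPM in single bone marrow libraries. Lyz2, which granulocytes express too, had 223 to 1606 CPM in bone marrow and 106 to 790.1 CPM in adipose. The part of macrophages in the Spp1 level was not tested.

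Alpl, the gene of tissue-nonspecific alkaline phosphatase, differed least. It had 3.57, 871, 173, 0.260 and 178 CPM in bone marrow with glutamine and 328, 99.9, 0.50 and 0.298 CPM with HFD. Its level in adipose was 24.1, 25.7, 49.4, 22.8 and 21.1 CPM with glutamine and 14.3, 22.2, 18.6 and 15.0 CPM with HFD. In bone marrow 5 libraries were above all of adipose and 4 were below all of it. Over all libraries Alpl differed by 5.93 (log2) relative to the median gene (4.50 ± 1.27 before, adjusted p = 0.00596).

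Pth1r, the receptor of parathyroid hormone, had 117, 1528, 337, 64.2 and 1041 CPM in bone marrow with glutamine and 127, 360, 992 and 1.09 CPM with HFD. In adipose Pth1r had 20.1, 17.8, 28.7, 26.0 and 47.6 CPM with glutamine and 7.998, 10.8, 28.7 and 1.10 CPM with HFD. All bone marrow libraries but HFD 23+28 stood above all adipose libraries. Pth1r was 8.13 higher (log2) relative to the median gene (6.71 ± 1.08 before, adjusted p = 2.82e-05).

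The osteocyte genes were detected in few libraries. Phex, whose loss raises FGF23 and wastes phosphate, had 30.5, 0.429, 109, 172 and 0.355 CPM in bone marrow with glutamine and 0.184, 103, 0.321 and 0.0497 CPM with HFD. Adipose libraries had 0.0585 to 0.286 CPM with glutamine and 0.0220 to 1.24 CPM with HFD. The 4 bone marrow libraries at 30.5 CPM or more stood apart, and the other 5 lay in the adipose range. The log2 difference was 10.84 relative to the median gene (9.42 ± 1.86 before, adjusted p = 0.000290).

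Dmp1, an acidic matrix protein of osteocytes, had 0, 2005, 260, 1 and 0 counts in bone marrow with glutamine and 2, 1, 1 and 1 counts with HFD. In adipose it had 1, 1, 5, 0 and 0 counts with glutamine and 0, 0, 7 and 4 counts with HFD. Mepe, another protein of this family on chromosome 5, had 260 counts in glutamine bone marrow library 18+20, 1 count in HFD bone marrow library 14+17 and 0 in the other 7 bone marrow libraries and all 9 adipose libraries. Dmp1 and Mepe thus rest on 2 libraries and 1 library of bone marrow. Both were below the count filter. Without that filter they were called higher in bone marrow, at 6.18 ± 1.56 for Dmp1 (adjusted p = 0.00296) and 6.30 ± 1.80 for Mepe (adjusted p = 0.00956), values that depend on the prior count because adipose was near 0.

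Sost, the gene of sclerostin, which blocks Wnt signals and is typical of mature osteocytes, had 0 counts in all 9 bone marrow libraries. A count of 0 allows up to 0.0790 CPM in the deepest bone marrow library and 0.215 CPM in the shallowest (3 counts, counting error only). In adipose it had 89 counts in HFD library 14+17, which is 1.72 CPM, 1 count each in glutamine libraries 10+12 and 18+20, and 0 in the others. Adipose library 14+17 was also the highest of its arm in Phex, Spp1, Pth1r and Dmp1.

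**Figure D2:**
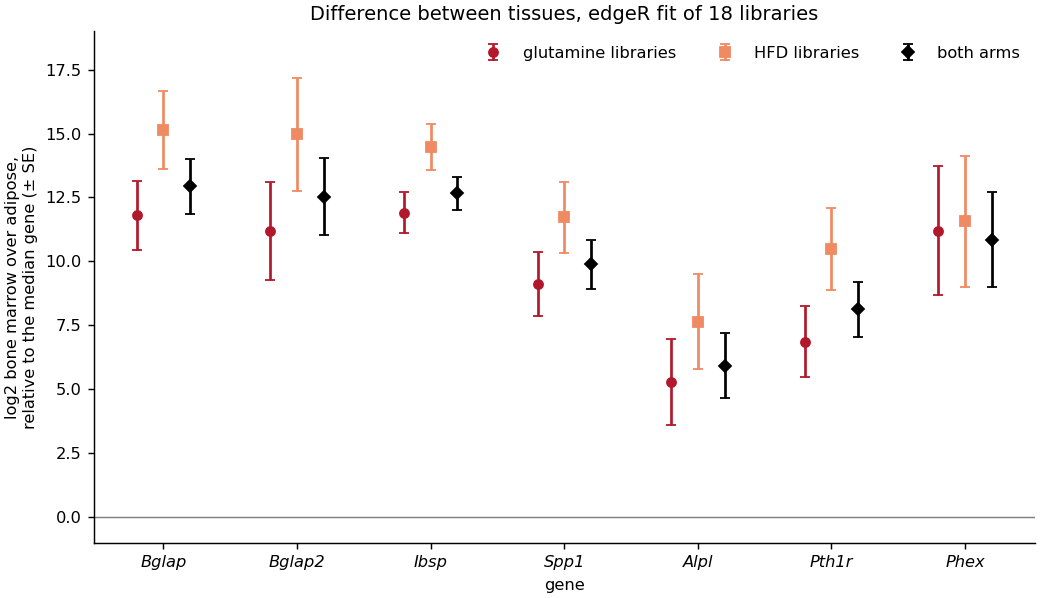
Log2 difference of bone marrow over adipose for the 7 genes that passed the count filter, relative to the median of 15203 genes, in the glutamine libraries, the HFD libraries and both, from 1 edgeR fit of 18 libraries. Bars are standard errors. The median taken off was that of each contrast, at -0.55 in the glutamine libraries, -3.39 in the HFD libraries and -1.43 for both. Heights of the arms are therefore not comparable with each other. Before that step Bglap was at 11.26 with glutamine and 11.75 with HFD, and Ibsp at 11.36 with glutamine and 11.1 with HFD. All values lie above 0, with Bglap, Ibsp and Bglap2 at 12.54 to 12.93 and Alpl lowest at 5.93 for both arms.

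The same fit gave the difference within each arm. In the glutamine libraries all 7 genes were called higher in bone marrow, beside 7.16% of all genes. In the HFD libraries 6 were called higher, beside 5.91% of all genes, and Alpl was at 4.26 ± 1.85 before the median was taken off (adjusted p = 0.0644). For 3 of the 10 genes, Bglap, Bglap2 and Ibsp, every bone marrow library was above every adipose library, which held for 0.210% of the genes tested. Bglap2 fell to 1.94 CPM in bone marrow, and the part of Bglap reads in its low levels was not tested.

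Other genes of bone formation were read from lists of the matrix, mineral, osteocyte and receptor pathways. Their counts stand beside 11.2% of all genes called higher and 40.5% called lower with TMM factors, and 42.9% called higher with RLE factors. Of 13 bone matrix genes tested, 8 (61.5%) were called higher in bone marrow and none lower, with a median of 4.50 relative to the median gene. List medians are relative to the median gene, while single list genes of this comparison are given before that median (-1.43) was taken off. Col24a1, a fibrillar collagen gene, was at 11.75 ± 2.08 (log2 bone marrow over adipose ± SE, adjusted p = 8.64e-05), Chad, the gene of chondroadherin, at 11.14 ± 0.925 (7.19e-08) and Col11a2, a cartilage collagen gene, at 10.93 ± 1.09 (1.32e-06). The collagen I gene Col1a1 had 50300 to 229700 CPM in bone marrow and 5279 to 10020 CPM in adipose. Of 7 osteoblast transcription factor genes tested, 5 (71.4%) were higher and 1 lower (median 5.02). Runx2, the factor that starts the osteoblast lineage, was at 6.28 ± 1.51 (adjusted p = 0.00177), while Zfp521, an antagonist of Runx2, was at -6.10 ± 0.786 (3.97e-06). Runx2 had 0.172 to 347 CPM in bone marrow and 2.79 to 13.3 CPM in adipose, so the tissues overlapped. Col24a1 overlapped too, with 0.149 to 586 CPM in bone marrow (median 0.315 CPM with HFD) and 0.116 to 0.334 CPM in adipose. So did Col11a2, with 2.93 to 2869 CPM in bone marrow and 1.12 to 5.87 CPM in adipose, whereas Chad did not.

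The other lists held calls in both directions, again beside 11.2% higher and 40.5% lower over all genes. Of 12 genes of mineralization enzymes and phosphate transport, 2 (16.7%) were higher and 3 lower. The carbonic anhydrase gene Car2 was at 10.31 ± 0.778 (adjusted p = 1.44e-08), the phosphate transporter gene Slc20a2 at -7.00 ± 1.48 (0.000764) and the calcium exchanger gene Slc8a1 at -6.45 ± 1.43 (0.000888). Car2 is also a gene of red cells and osteoclasts. Of 10 inhibitor genes, 3 (30%) were higher and 3 lower. The stanniocalcin genes Stc2 and Stc1 were at -7.13 ± 1.33 (0.000155) and -6.18 ± 0.949 (1.76e-05) and the fetuin gene Ahsg at -5.49 ± 1.80 (0.0169). In CPM the tissues overlapped in Slc8a1, Stc1, Stc2 and Ahsg and not in Car2 and Slc20a2.

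Of 11 genes of the osteocyte and FGF23 list, 4 (36.4%) were higher and 3 lower. Galnt3, whose product protects FGF23 from cleavage, was at 8.51 ± 2.34 (adjusted p = 0.00513), Tnc, the gene of tenascin C, at 6.40 ± 0.852 (4.73e-06) and Capg, an actin-capping gene, at -5.99 ± 0.774 (4.00e-06). The tissues overlapped in Galnt3, with 0 to 228 CPM in bone marrow and 0 to 5.73 CPM in adipose. They also overlapped in Tnc, with 1.79 to 2267 CPM in bone marrow and 9.03 to 43.8 CPM in adipose, but not in Capg. Of 19 genes of PTH receptor signalling, 2 (10.5%) were higher and 3 lower, so that the share called higher was near that of all genes. Those lower were Tnfsf11, which encodes the osteoclast factor RANKL, at -7.39 ± 1.46 (0.000489), the ligand gene Pthlh at -7.08 ± 1.29 (0.000119) and the co-receptor gene Ramp2 at -5.87 ± 0.845 (8.72e-06). Pthlh had at most 1 count in any bone marrow library. In CPM the tissues overlapped in Tnfsf11 and Pthlh and not in Ramp2. Calls of these 4 lists changed under RLE factors, with 9, 7, 7 and 14 genes higher and 0, 2, 3 and 3 lower, so that the enzyme list lost its lower calls. Of 6 osteoclast genes, 3 were lower and none higher with TMM factors, while 3 were higher and 2 lower with RLE factors. The median of the osteoclast list relative to the median gene was -0.66 with TMM factors and 0.16 with upper-quartile factors.

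Markers of other cells were counted in the same fit, beside the same shares of all genes. Called higher in bone marrow were 11 of 11 granulocyte genes, 9 of 10 marrow stroma genes, 7 of 8 chondrocyte genes and 6 of 9 erythroid genes, with none lower. Summed levels of the erythroid genes overlapped, with 4007 to 17970 CPM in bone marrow and 1898 to 17830 CPM in adipose. Adipoq is in both the marrow stroma and the adipocyte list. Called lower were 10 of 16 macrophage genes (2 higher), 8 of 8 mesothelial, 7 of 9 endothelial, 6 of 10 adipocyte (1 higher), 6 of 10 adipose progenitor and 4 of 8 mural genes. With RLE factors 3 adipocyte genes were higher and 3 lower, 3 adipose progenitor genes were higher and 2 lower, and 3 mural genes were higher and 3 lower. The bone genes thus moved together with granulocyte, stroma and cartilage genes, whose part in the result was not tested.

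Bglap, Bglap2 and Ibsp had few adipose counts for their bone marrow counts. Summed over libraries, adipose held 0.250 counts of Bglap, 0.256 of Bglap2 and 0.288 of Ibsp for each 100 bone marrow counts. Spp1 had 2.08, Phex 0.768, Dmp1 0.793, Pth1r 9.29 and Alpl 28.3. Over the 249 genes with at least 100000 bone marrow counts the lowest value was 0.250, that of Bglap itself, the 5th percentile was 0.988 and the median 143. Below 0.35, a limit chosen after the values were seen, lay 8 of these genes (3.21%), the 3 matrix genes, Chad, the cartilage collagen genes Col2a1 and Col11a1, the granule gene Camp and the red cell gene Car1. Bglap2 made up 23.8% of the pair's counts in adipose and 23.3% over all bone marrow counts. Adipose levels of Bglap were also even, with 2.52 ± 0.225 CPM (SD, n = 9), where bone marrow had 1845 ± 1789 CPM. The labels name 1 sequencing lane, and the part of sequencing libraries together in these low values was not tested.

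**Figure D3:**
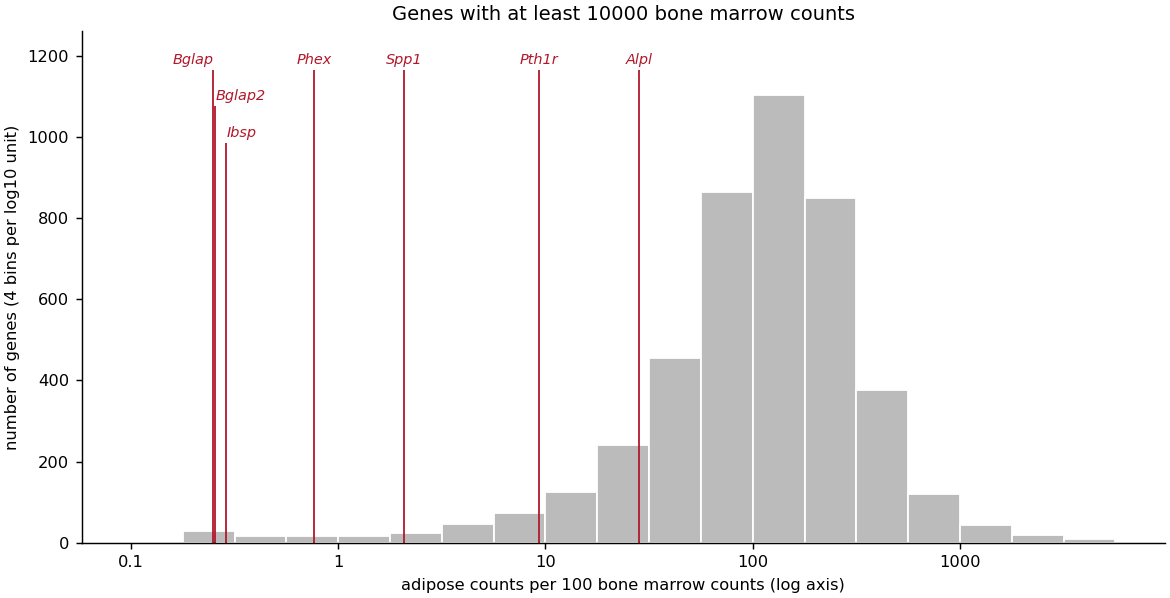
Number of genes by adipose counts per 100 bone marrow counts, on a log axis, for the 4427 genes with at least 10000 bone marrow counts. Red lines mark the 7 of the 10 bone genes in that set. Bglap (0.250), Bglap2 (0.256) and Ibsp (0.288) stand at the far left, while Alpl (28.3) stands at the lower side of the bulk of genes.

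**Figure D4:**
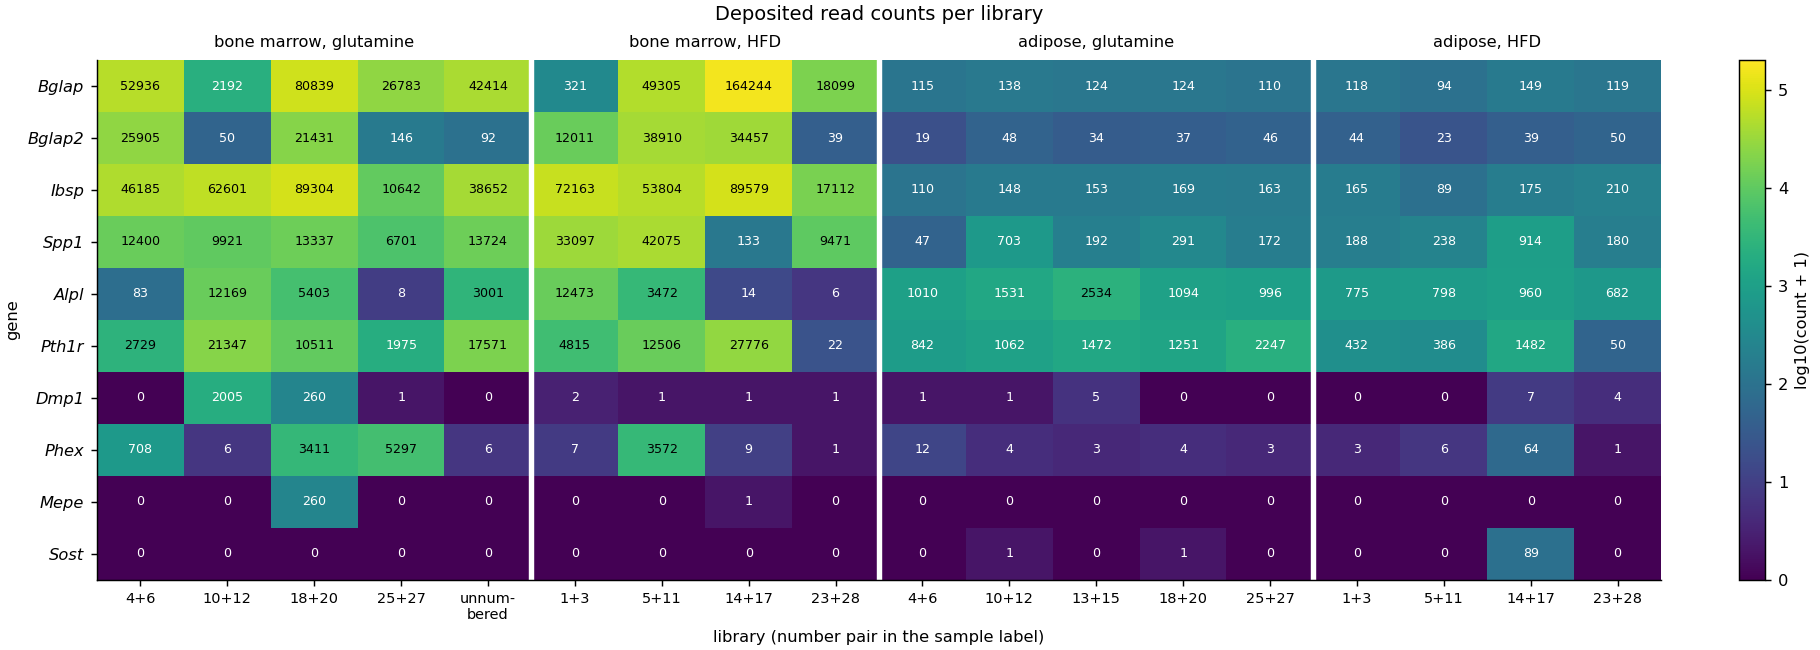
Deposited counts of each gene in every library, printed in the cells and coloured by log10(count + 1), with bone marrow left of adipose and glutamine left of HFD. In bone marrow neighbouring cells of a row range from 0 or a few counts to 2005 or more, as in Alpl, Phex and Dmp1, while adipose rows are more even.

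Within bone marrow the genes differed in how many libraries held them. Bglap, Ibsp and Spp1 reached 100 counts in 9 of 9 libraries, Pth1r in 8, Bglap2 in 6, Alpl in 5, Phex in 4, Dmp1 in 2, Mepe in 1 and Sost in 0. Of 4427 genes with at least 10000 bone marrow counts in all, 251 (5.67%) reached 100 counts in all 9 libraries and 2264 (51.1%) in at least 5. Glutamine library 18+20, with the most detected genes, held 9 of the 10 bone genes at 100 counts or more, and HFD library 23+28, with the fewest, held 3. In adipose 3 to 5 of the 10 reached 100 counts per library, with Alpl in all 9 libraries. The 10 genes together took 0.594% ± 0.247 (SD, n = 5) of counts in bone marrow with glutamine and 0.573% ± 0.400 (SD, n = 4) with HFD, and 0.00683% ± 0.00149 in adipose with glutamine (SD, n = 5) and 0.00453% ± 0.00212 in adipose with HFD (SD, n = 4).

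The largest share of the bone gene counts moved as well. Ibsp held 35.8% and Bglap 32.6% of the 10 genes' bone marrow counts, whereas Alpl held 40.6% and Pth1r 36.1% of their adipose counts. By mean level in bone marrow the order was Ibsp, Bglap, Spp1, Pth1r, Bglap2, Alpl, Phex, Dmp1, Mepe and Sost, in 3′ end counts that need no length correction. Neighbours in this order overlapped in their ranges over libraries. In adipose the order was Alpl with 23.7 ± 10.4 CPM, Pth1r with 21.0 ± 13.8, Spp1 with 6.46 ± 5.17, Ibsp with 3.18 ± 0.675, Bglap with 2.52 ± 0.225 and Bglap2 with 0.775 ± 0.188 (SD, n = 9), and the other 4 genes averaged 0.227 CPM or less. Of neighbours among the first 6 here, only Bglap and Bglap2 did not overlap. Ibsp, Bglap and Bglap2 held only 0.250 to 0.288 adipose counts for each 100 bone marrow counts. The part of sequencing libraries together in their adipose levels and order was not tested.

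Genes nearest in pattern were sought over all 18 libraries among 12926 named genes, by the mean absolute difference of centred log2 CPM. The nearest to Ibsp were the cartilage collagen gene Col11a1 (0.51), the carbonic anhydrase gene Car1 (0.59) and Chad (0.72), against a median of 6.98 over genes. The same 3 were nearest to Bglap, at 1.02, 1.28 and 1.32. Bglap2 was nearest to Col2a1 (1.49), the collagen receptor gene Itga10 (1.59) and the cartilage link protein gene Hapln1 (1.83). The nearest to Spp1 were Car2 (1.27), the granulocyte gene S100a8 (1.44) and Chil3 (1.44), and those to Pth1r were Tnc (1.16), Col1a1 (1.30) and the transferrin receptor gene Tfrc (1.31). Phex was nearest to the Wnt inhibitor gene Wif1 (1.54), the phospholipase gene Pla2g5 (1.63) and the neutrophil collagenase gene Mmp8 (1.69). Alpl was nearest to U2surp (0.94), Smim15 (1.05) and Alkbh5 (1.13). The difference between tissues dominates this measure, and the libraries share their depth.

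The second comparison asked whether glutamine changed the bone genes in bone marrow, given with the values by library above. None of the 7 genes that passed the filter was called, beside 0.132% of all 6041 genes tested (8 genes, all lower with glutamine, by edgeR). An unadjusted p below 0.05 was found for 1127 genes, and for none of the 7. DESeq2 called 416 genes higher and 311 lower with glutamine, none of the 7 among them. The count of 8 depended on single libraries. It was 0 without glutamine library 4+6, 10+12, 18+20 or 25+27, 2 without HFD library 23+28, and 14 to 19 without the unnumbered glutamine library or HFD library 1+3, 5+11 or 14+17. For each of the 10 genes the glutamine and HFD libraries overlapped or were all at 0, while 3.77% of genes had arms that did not overlap.

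The matrix genes had log2 differences of glutamine over HFD below 0, where the median gene was at -0.22. Bglap was at -1.05 ± 1.00 (SE, edgeR adjusted p = 0.687), with 1682 ± 1102 CPM with glutamine (SD, n = 5) and 2048 ± 2611 CPM with HFD (SD, n = 4). Bglap2 was at -1.77 ± 1.59 (0.656) and both copies together at -1.17 (0.584). Ibsp was at -0.23 ± 1.00 (0.954), with 2393 ± 1495 CPM with glutamine and 1874 ± 985 CPM with HFD. Spp1 was at -0.35 ± 1.50 (0.952), with 540 ± 234 CPM with glutamine and 639 ± 520 CPM with HFD. For Ibsp the CPM means and the fitted difference, which uses TMM factors, thus had different signs, and neither exceeded its error. Signs also turned with single libraries. Without HFD library 14+17 Bglap was at 0.57 and Ibsp at 0.44, without glutamine library 25+27 Ibsp was at 0.29 and Spp1 at 0.13, and without glutamine library 4+6 Ibsp was at 0.09.

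The enzyme, receptor and osteocyte genes had wider errors still. Alpl was at 1.41 ± 2.18 (adjusted p = 0.854), Pth1r at 0.32 ± 1.52 (0.957) and Phex at 0.93 ± 2.37 (0.916). Phex reached 100 counts in 3 of 5 glutamine libraries and 1 of 4 HFD libraries, Alpl in 3 glutamine and 2 HFD libraries, and Dmp1 in 2 glutamine and 0 HFD libraries. Without the count filter Dmp1 was at 8.68 ± 3.64 (0.135) and Mepe at 5.95 ± 1.94 (0.0887), neither called. Without glutamine library 25+27 Phex was at -0.042. Pth1r was at -0.37 without the unnumbered glutamine library, at -0.06 without HFD library 1+3 and at -0.17 without HFD library 23+28. Errors of this size leave differences of several fold in either direction undetectable in these 9 libraries.

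**Figure D5:**
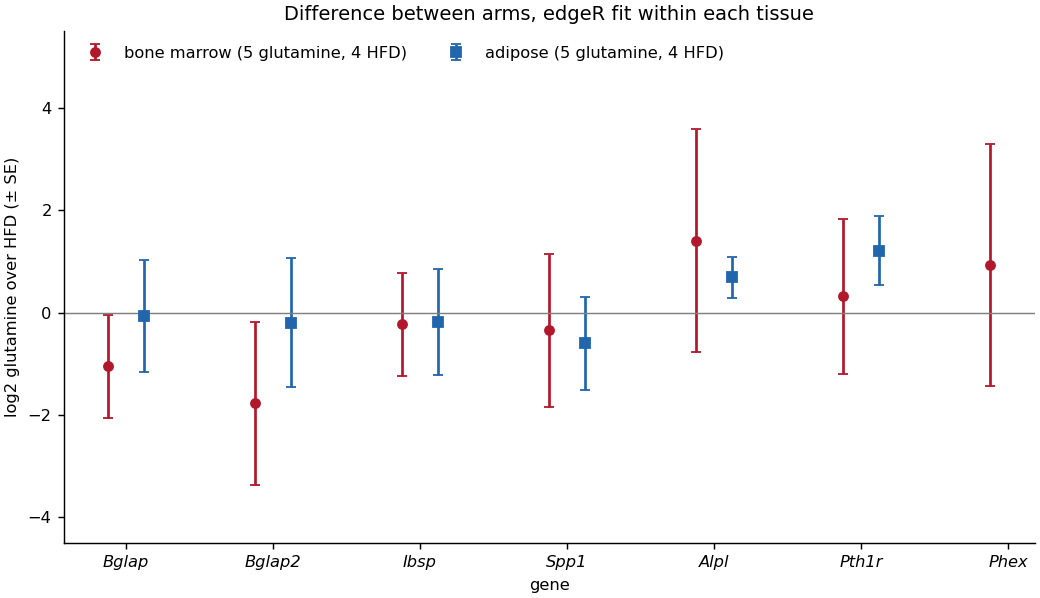
Log2 difference of glutamine over HFD in bone marrow and in adipose, from an edgeR fit within each tissue, with standard errors. The values lie between -1.77 and 1.41, and none passed the test. Phex passed the count filter in bone marrow only.

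Among the pathway lists 1 gene was called in bone marrow, Nt5e, whose ecto-nucleotidase makes adenosine and whose loss calcifies arteries in humans. It had 0.228 to 2.85 CPM in glutamine libraries and 0.321 to 1385 CPM in HFD libraries, a log2 difference of -10.19 ± 2.48 (adjusted p = 0.0378). It was not called with RLE factors (adjusted p = 0.0882) or upper-quartile factors (adjusted p = 0.242). None of the 11 bone matrix, 8 enzyme and transport, 6 osteocyte, 14 PTH signalling and 4 transcription factor genes tested was called. The smallest p of the matrix list belonged to Col1a1 at -0.80 ± 0.213 (0.0737).

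The same question was then put to the adipose libraries. None of the 6 genes that passed the filter was called by edgeR, and 0 of all 15114 genes tested were called (0%), with 624 genes at an unadjusted p below 0.05. DESeq2 called 31 genes, none of the 6. Pth1r had the largest difference of the 6, at 1.21 ± 0.679 (SE), with 28.0 ± 11.8 CPM with glutamine (SD, n = 5) and 12.1 ± 11.8 CPM with HFD (SD, n = 4). Alpl followed at 0.69 ± 0.394 (SE), with 28.6 ± 11.8 CPM with glutamine and 17.6 ± 3.64 CPM with HFD. Both had an adjusted p of 1.00 after rounding.

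Arms overlapped for each gene in adipose or were all at 0, while 1.66% of genes had arms that did not. In Alpl 4 of 5 glutamine libraries were above all 4 HFD libraries, and the fifth, at 21.1 CPM, was below HFD library 5+11 at 22.2 CPM. Pth1r was low in HFD library 23+28, with 50 counts, and high in HFD library 14+17, with 1482. Bglap was at -0.08 ± 1.10, Bglap2 at -0.20 ± 1.27, Ibsp at -0.19 ± 1.03 and Spp1 at -0.60 ± 0.909, each with an adjusted p of 1.00 after rounding. Without HFD library 14+17 Spp1 was at 0.11. Macrophage genes summed to 569 to 1074 CPM in adipose with glutamine and 845 to 2192 CPM with HFD, and their part in Spp1 was not tested. No gene of the 6 pathway lists was called in adipose.

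The last comparison asked whether the glutamine difference itself differed between tissues, as bone marrow minus adipose. None of the 7 genes tested was called, beside 11.9% of 15203 genes. All 18 libraries shared 1 estimate of dispersion, the spread beyond counting error, per gene in this fit. Its median was 2.00 here, 3.32 in bone marrow alone and 0.378 in adipose alone. Errors and calls from this fit may therefore understate the spread of bone marrow. Phex was at 2.46 ± 2.54 (adjusted p = 0.662), Bglap2 at -0.95 ± 1.92 (0.877), Pth1r at -0.78 ± 1.64 (0.884), Bglap at -0.49 ± 1.32 (0.921), Alpl at 0.48 ± 2.17 (0.973), Ibsp at 0.27 ± 0.786 (0.933) and Spp1 at 0.24 ± 1.35 (0.986). The count of 1811 was 0 with RLE and with upper-quartile factors and 0 without any one of the 9 adipose libraries or without HFD bone marrow library 23+28. It was 399 to 466 without HFD bone marrow library 1+3, 5+11 or 14+17. It was 2681 without glutamine bone marrow library 18+20, and DESeq2 called 571 genes higher and 490 lower. Signs of the bone genes turned too, as in Bglap, at 0.90 without HFD bone marrow library 14+17.

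In that test 2 bone matrix genes were called, Omd, the gene of osteoadherin, at 9.59 ± 2.46 and Ifitm5, an osteoblast membrane protein gene, at 12.30 ± 3.29 (adjusted p = 0.0432 for both). Omd had 0.0430 to 216 CPM in bone marrow with glutamine and 0.0357 to 0.132 CPM with HFD, and Ifitm5 had 0.118 to 212 CPM with glutamine and 0 to 0.201 CPM with HFD. The kinase gene Ptk2b (-8.42 ± 2.34), Nt5e (-9.51 ± 2.17), Fam20a (7.64 ± 2.27), the salt-inducible kinase gene Sik1 (7.91 ± 1.97) and the homeobox gene Dlx3 (-9.20 ± 2.41) were also called, with adjusted p between 0.0432 and 0.0434. Bone marrow arms overlapped in Omd, Ifitm5, Ptk2b, Nt5e, Fam20a and Dlx3, while Sik1 had 0.293 to 89.3 CPM with glutamine and 0.0993 to 0.214 CPM with HFD.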

How the data were processed

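RNA of 18 libraries was sequenced with a 3′ kit (QuantSeq FWD, 30 ng of total RNA, read 1 only), per the labels' protocols. The authors deposited whole-number counts per gene, 1 table per tissue, on GRCm38, and the submitters' processing notes name FastQC 0.12.1, STAR 2.7.10b and HTSeq 0.11.3. The sources used here do not state the annotation, strand setting or duplicate handling, and no molecular identifiers are named, so depth limits cover counting error only.

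Counts were fitted with edgeR 4.0.16 in R 4.3.3 (filterByExpr, TMM factors, quasi-likelihood test, Benjamini-Hochberg adjustment over all genes tested, threshold 0.05). Tissue differences and the difference of the glutamine effects came from 1 fit of 18 libraries with 4 groups, and glutamine effects from the 9 libraries of each tissue. The standard error is the log2 difference divided by the square root of its F statistic. The scripts were tested on simulated data with less spread between libraries than here, so that test does not show how the fits perform on these libraries. Alternatives were RLE and upper-quartile factors, DESeq2 1.42.0, no count filter, a stricter one, single arms, a replicate block, and leaving out libraries. Summing Bglap and Bglap2 was added after the data were seen.

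The bone genes and lists were chosen with earlier results of these data known. All 10 were named. Of each pathway list, all genes called were named if 4 or fewer, otherwise the 3 with the largest difference. Where none was called, the gene with the smallest p was named only for the matrix list in bone marrow. Cell marker lists are given by counts. One gene that this rule names is not reported here. The nearest patterns were the 3 nearest named genes. Promoter windows were matched by symbol for 9 of 10 genes. Gene positions came from a GRCm38 annotation. Python 3.11.15 with pandas 2.3.3 and matplotlib 3.10.9 drew the plots.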

Additional observations from a re-analysis of the deposited data

Results flagged for a closer look

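A Dixon test of the highest and of the lowest library was run on 36 sets, each 1 gene in 1 group of 4 or 5 libraries. In 10 of these sets a single library stood far above the others of its group. The limits of this test assume normally distributed values, and CPM here were uneven and often 0. The ratio is 1 whenever all other libraries are at 0, as for Mepe in bone marrow. The number of flags is therefore a description and is not set against a rate by chance. In bone marrow with glutamine, library 10+12 had 871 CPM of Alpl, where the others had 0.26 to 178 CPM, and 144 CPM of Dmp1, where the others had 0 to 8.33 CPM. Library 18+20 of that group had 8.33 CPM of Mepe (260 counts), where the others had 0. In bone marrow with HFD, library 5+11 had 103 CPM of Phex, where the others had 0.0497 to 0.321 CPM, and library 14+17 had 0.0357 CPM of Mepe, which is 1 count.

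In adipose with glutamine, library 13+15 had 49.4 CPM of Alpl, where the others had 21.1 to 25.7 CPM, and 0.0975 CPM of Dmp1, which is 5 counts. Library 4+6 of that group had 0.286 CPM of Phex (12 counts). In adipose with HFD, library 14+17 had 1.24 CPM of Phex (64 counts) and 1.72 CPM of Sost (89 counts), where the others had at most 6 and 0 counts.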

How the results depend on the processing

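The 7 bone genes tested were called higher in bone marrow in all 126 values of the 18 fits that left out 1 library. The same held for 61 of 63 values under the other settings. The exceptions were Alpl with a replicate block and in the HFD libraries alone, positive relative to the median gene but not called. It was at 5.13 with the block (edgeR adjusted p = 0.730) and 4.43 in the HFD libraries (0.0716). These p-values test the difference before the median was taken off, and with the block the median gene lay at -4.12. Libraries of both tissues that carry the same number pair did not deviate together (correlations -0.00906 to 0.0302, and 2 of 8 libraries correlated best with their own pair). Such correlations cannot decide whether a pair shares animals, because bone marrow libraries differed widely among themselves. With the block 6 of the 7 genes were called. Genes called between tissues numbered 7858 and, in the HFD libraries alone, 5132. For glutamine in bone marrow 8 genes were called, with 0 under RLE factors, upper-quartile factors or a filter of 100 counts in 4 libraries, 202 without a filter, 727 with DESeq2 (416 higher and 311 lower) and 0 to 19 without single libraries. In adipose 0 were called and 31 with DESeq2. The difference of the effects had 1811 calls, 0 under RLE or upper-quartile factors, 1061 with DESeq2 and 0 to 2681 without single libraries. Directions that turned were those of uncalled values. In bone marrow Ibsp was at 0.095 under upper-quartile factors and Pth1r at -0.93 without the 2 thinnest libraries. The difference of the effects was -0.26 (RLE), -0.40 (upper quartile) and -0.26 (DESeq2) for Ibsp, and -0.44, -0.33 and -0.29 for Ibsp, Spp1 and Alpl without the 2 thinnest libraries. Without single libraries, bone marrow values ran over -1.73 to 0.57 (Bglap), -0.54 to 0.44 (Ibsp), -1.06 to 0.13 (Spp1), -0.37 to 2.19 (Pth1r) and -0.042 to 7.34 (Phex), and adipose Spp1 over -1.13 to 0.11. The difference of the effects ran over -1.30 to 0.90 (Bglap), -0.28 to 0.65 (Ibsp), -0.42 to 0.77 (Spp1), -0.57 to 1.87 (Alpl) and -1.68 to 0.83 (Pth1r). The cause was not tested. In bone marrow Dmp1, Mepe and Sost were at 0 in 2, 7 and 9 libraries, where 3 counts are 0.0790 to 0.215 CPM.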

Other observations

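In bone marrow with glutamine, library 18+20 had the same number of counts, 260, for Dmp1 and for Mepe. The reverse ratio of the tissues had a similar floor. Over the 715 genes with at least 100000 adipose counts, bone marrow held at least 0.176 counts for each 100 adipose counts, with a 5th percentile of 0.634 and a median of 28.8.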
